A study of Mus musculus with 12 samples.

Results

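The genes described here encode the proteins of the cytosolic ribosome. They were taken from the gene table by biotype and name, as the protein-coding entries whose symbol follows the Rpl or Rps pattern with a number, with or without a closing a, x or l, together with Rplp0, Rplp1, Rplp2 and Rpsa. The rule found 82 of the 46731 genes in the table, of which 51 belong to the large subunit and 31 to the small subunit. It used no measured value. 79 of the 82 passed the filter on low values (an FPKM no lower than 1 in 3 or more libraries), as did 12368 genes in all. Rpl10l was listed at 0 in every library, while Rpl3l reached at most 0.151 FPKM and Rpl32l at most 0.85 FPKM, and these 3 large subunit genes were not tested.

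RNA was sequenced from ATDC5 cells, a chondrogenic line derived from a mouse teratocarcinoma, in 4 groups of 3 libraries. All cells carried a lentiviral shRNA cassette driven by a U6 promoter and had been selected as a pool with puromycin, with either a control hairpin (shRNA-NC) or 1 hairpin against Ddx5 (shRNA-Ddx5), a DEAD-box RNA helicase. Both kinds of cell were kept without stimulation or exposed for 6 h to IL-1β (5 ng/ml) together with TNF-α (25 ng/ml). Each gene was measured as FPKM, fragments scaled by gene model length and by a factor for each library. That factor equalled a median-of-ratios size factor rather than the number of fragments counted. Values below are levels in FPKM unless they are named as log2 fold changes. A log2 fold change is on the log2(FPKM + 1) scale and was tested with limma across all 12368 genes, adjusted by Benjamini-Hochberg and called at 0.05.

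Each cytosolic ribosome holds a large subunit, which joins amino acids and anchors the growing chain, and a small subunit, which reads the mRNA. Vertebrate ribosomal protein mRNAs mostly begin with a cytidine followed by a run of pyrimidines, the 5′ terminal oligopyrimidine (TOP) motif, through which mTOR signalling and LARP1 regulate their translation. Their genes are short and are among the most abundantly transcribed of any cell, and they have left many processed copies across mammalian genomes. Several members have relatives with restricted or stress-related expression, among them Rps27l, a p53-responsive relative of Rps27.

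The coding sequences of Rps27 and Rps27l are shown because this pair gave the largest opposed changes with the knockdown that passed in both media, and because a copy of Rps27 shares its coding sequence. They were read without the stop codon from the GRCm39 genome, whose gene positions match those in the table for 82 of 82 members. Rps27 lies on the minus strand, with coding exons within chr3:90120035-90120922, and Rps27l on the plus strand, with coding exons within chr9:66853457-66856636. Capitals in Rps27l mark the 60 of 252 bases that differ from Rps27, an identity of 76.19%.
Rps27: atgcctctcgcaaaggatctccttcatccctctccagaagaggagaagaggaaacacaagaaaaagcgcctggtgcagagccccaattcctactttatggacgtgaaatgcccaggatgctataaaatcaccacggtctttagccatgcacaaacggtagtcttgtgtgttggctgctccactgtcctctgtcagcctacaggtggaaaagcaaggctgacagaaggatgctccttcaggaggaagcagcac
Rps27l: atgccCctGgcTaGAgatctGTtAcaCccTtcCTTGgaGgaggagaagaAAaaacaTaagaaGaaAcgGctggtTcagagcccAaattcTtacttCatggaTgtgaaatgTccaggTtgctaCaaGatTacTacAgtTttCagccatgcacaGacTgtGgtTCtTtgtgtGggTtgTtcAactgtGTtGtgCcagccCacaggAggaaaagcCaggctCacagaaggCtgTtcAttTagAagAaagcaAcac
Rps27rt, a copy annotated as a gene of its own in the table, lies on the minus strand at chr9:114811524-114811775 and matched Rps27 at all 252 coding bases. Fragments from its coding part therefore cannot be told apart from those of Rps27 by sequence, whereas Rps27l can be.

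The bases at annotated transcript starts, which are not measured 5′ ends, were read from RefSeq promoter windows on GRCm38.p6. These covered 61 of the 82 members in 73 windows. The windows below run from 30 bases before to 20 bases after the annotated start and are shown for 4 members whose levels differed with the knockdown. Capitals mark a C followed by at least 4 pyrimidines beginning within 5 bases of the start. They come from chr3:90213629-90213678 (minus strand) for Rps27, chr9:66946056-66946105 (plus) for Rps27l, chr2:26910777-26910826 (plus) for Rpl7a and chr5:121204471-121204520 (plus) for Rpl6.
Rps27: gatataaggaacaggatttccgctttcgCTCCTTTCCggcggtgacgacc
Rps27l: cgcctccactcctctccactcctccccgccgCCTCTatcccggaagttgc
Rpl7a: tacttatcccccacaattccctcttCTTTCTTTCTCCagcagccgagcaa
Rpl6: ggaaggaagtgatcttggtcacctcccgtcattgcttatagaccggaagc
A TOP-like start of this kind was found in 42.5% of the 73 member windows, against 18.3% of all 32851 windows. A run of at least 8 pyrimidines over the start was found in 24.7% of member windows and 3.86% of all windows. Searched on both strands, CCGGAAG, the core bound by ETS factors and GABP, stood in 35.6% of member windows against 8.86% of all, and AAGATGG, the core bound by YY1, in 15.1% against 6.34%. GGGCGG, bound by SP factors, stood in 57.5% against 35.7%, and TATAAA in 9.59% against 13.6%. Of the members that passed the knockdown test and are named below, Rps27, Rps18, Rpl13a, Rpl12, Rpl31 and Rpl7a had a TOP-like start in these windows, as did 1 of the windows of Rps27l, whereas Rpl6, Rpl10a, Rpl23, Rpl24 and Rpl27 had none. Both kinds held members that were higher and members that were lower in knockdown cells. Rps20, Rpl3 and Rpl6l, which also passed, were not covered by a window.

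Ddx5 itself was 325, 337 and 294 FPKM in shRNA-NC cells and 90.7, 118 and 99.9 FPKM in shRNA-Ddx5 cells, and with cytokines 327, 302 and 301 FPKM against 100.9, 93.6 and 104 FPKM. The knockdown left 32.3% of the control level in medium and 32.1% with cytokines (exact permutation p = 0.1 in each, 2-sided, the smallest that 3 against 3 libraries allow). Between 14119199 and 19276520 fragments were counted per library. Of 10 chondrogenic markers only Sox9, Sox5, Col2a1 and Col11a1 passed the filter, with Sox9 at 5.08 to 27.8 FPKM and Acan at or below 0.033 FPKM, and Sox6, Acan, Comp, Matn1, Matn3 and Col9a1 did not, so most defining markers of cartilage were absent or near 0. Of 9 markers of other cell types, Ptprc, Cdh5, Epcam, Myod1, Myog and Adipoq were at 0, Pecam1 reached at most 0.112 FPKM and Krt8 at most 0.0337 FPKM, and Cd68, a macrophage marker, passed the filter at 0.89 to 2.10 FPKM. The library shRNA-NC 3, which had the fewest fragments (14119199), stood apart. Over the members its deviations from the gene means of its group had an SD of 0.354 on the log2 scale, the widest of the 12 libraries. Over all genes tested its SD was 0.259, also the widest of the 12, so this was not particular to the members. Of the members, 35 were highest and 30 lowest of their group there. Whether same-group libraries came from separate cultures is stated only as biological independence, and p-values measure the spread between these libraries.

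The ribosomal protein genes took a smaller share of the FPKM sum in knockdown cells. Their share of the summed FPKM was 17.2% ± 0.90 (SD, n = 3; 16.1 to 17.8%) in shRNA-NC cells and 14.5% ± 1.23 (13.5 to 15.9%) in shRNA-Ddx5 cells. With cytokines it was 16.5% ± 0.55 (15.9 to 17.0%) against 15.2% ± 0.52 (14.8 to 15.8%). The knockdown libraries lay below the control libraries without overlap in both media. The small subunit genes accounted for 7.05% ± 0.41 against 5.75% ± 0.42 in medium and 6.74% ± 0.26 against 5.86% ± 0.17 with cytokines, in both cases without overlap, whereas the large subunit shares overlapped. The summed FPKM of the members itself overlapped, at 58760 to 67090 in shRNA-NC and 52510 to 69940 in shRNA-Ddx5 cells, and with cytokines at 66480 to 70560 against 65520 to 73370. The sum over all genes was higher in every knockdown library than in every control library, at 388800 to 440500 against 364100 to 383400 in medium and at 439900 to 466000 against 403800 to 433200 with cytokines. As a share of counted fragments, which does not divide by length, the members held 5.91% ± 0.39, 5.27% ± 0.62, 5.92% ± 0.11 and 5.57% ± 0.26 in shRNA-NC, shRNA-Ddx5, shRNA-NC with cytokines and shRNA-Ddx5 with cytokines, and here knockdown and control libraries overlapped. In bulk RNA a lower level of these mRNAs, more of other RNA and a change in the mix of cells cannot be told apart.

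Between members, levels per length spanned more than the range between groups. The highest means over the 12 libraries were 2965 FPKM for Rpl41, the shortest ribosomal protein, 2824 FPKM for Rps26 and 2569 FPKM for Rplp1, a P-stalk protein. The lowest among tested members were 8.22 FPKM for Rpl34, 3.35 FPKM for Rpl29 and 1.07 FPKM for Rpl28. All 3 of these low genes encode core large subunit proteins, and 97.3% of the fragments of Rpl34 with its named copy, and 96.9% of those of Rpl28 with its named copies, were counted on the copies.

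Named copies (entries with the symbol of a member and -ps or rt) had fragments for many members. The table held 223 such copies, and 54 members had at least 1. Copies took 6.33% of all fragments on members and copies together, at least 10% for 19 members and at least 50% for Rpl34, Rpl28 and Rpl17 (69.0%). Of 39 copies with a mean of at least 10 FPKM, 37 covered at least 90% of the coding sequence of the member, with a median identity of 99.67% (98.21 to 100%). Values of members with such copies are therefore uncertain in the split, and sums over each member and its named copies, an alternative chosen after seeing the data, are given where they change a result.

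The first comparison asked which ribosomal protein mRNAs differ when Ddx5 is knocked down in unstimulated cells. 7 members fell and 4 rose, 11 of 79 or 13.9%, against 47% of all genes (25.3% up and 21.7% down). Rps27 and Rps20 of the small subunit fell furthest, and Rpl6l, Rps27l and Rpl6 rose furthest. The median log2 fold change was -0.08 over the members and 0.03 over all genes, and 30 of 79 members lay above 0. By subunit, 3 of 48 large subunit genes rose and 4 fell (median -0.07), and 1 of 31 small subunit genes rose and 3 fell (median -0.12). The number that fell moved with the scaling, to 12 (3 rose) when libraries were scaled to the sum of fragments, to 21 (3 rose) when scaled to 1 sum of FPKM and to 16 (5 rose) after quantile normalization. The scaling to 1 sum of FPKM moved the median of all genes to -0.11 and that of the members to -0.23. With 1 library left out the median of the members ran from -0.18 (without shRNA-Ddx5 1) through 0 to 0.029 (without shRNA-Ddx5 2). Without shRNA-Ddx5 3, 4 members passed, against 39.1% of all genes.

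Rps27, a zinc-finger protein of the small subunit, was measured at 825, 894 and 658 FPKM in shRNA-NC cells and at 449, 536 and 250 FPKM in shRNA-Ddx5 cells. Every knockdown library was below every control library, and the levels were 792 ± 121 against 412 ± 147 FPKM (SD, n = 3), a log2 fold change of -1.003 (SE 0.28, limma adjusted p = 0.0134). The call was lost without the library shRNA-Ddx5 3, with an adjusted p of 0.051. Its copy Rps27rt, identical in the coding sequence, was 271, 160 and 1232 FPKM in shRNA-NC cells and 483, 270 and 914 FPKM in knockdown cells. It held between 10.4% and 70.4% of the fragments of the pair in the 12 libraries. The copy varied between replicates more than between groups. At the length of Rps27, the sum of the gene and its named copies was 1002, 998.7 and 1461 FPKM against 763, 711.7 and 844.5 FPKM. This sum did not overlap either, with a smaller log2 fold change of -0.56 (SE 0.19, limma adjusted p = 0.0327).

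Rps27l stood at 32.5, 27.7 and 40.8 FPKM in shRNA-NC cells and at 61.5, 50.9 and 58.4 FPKM in shRNA-Ddx5 cells. All knockdown libraries were above all control libraries, with 33.7 ± 6.64 against 57.0 ± 5.45 FPKM (SD, n = 3) and a log2 fold change of 0.75 (SE 0.13, limma adjusted p = 0.000738). The call held in every alternative and every leave-out that was run. Rps27l and Rps27, whose proteins are close relatives, thus moved in opposite directions in the same libraries.

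**Figure D1:**
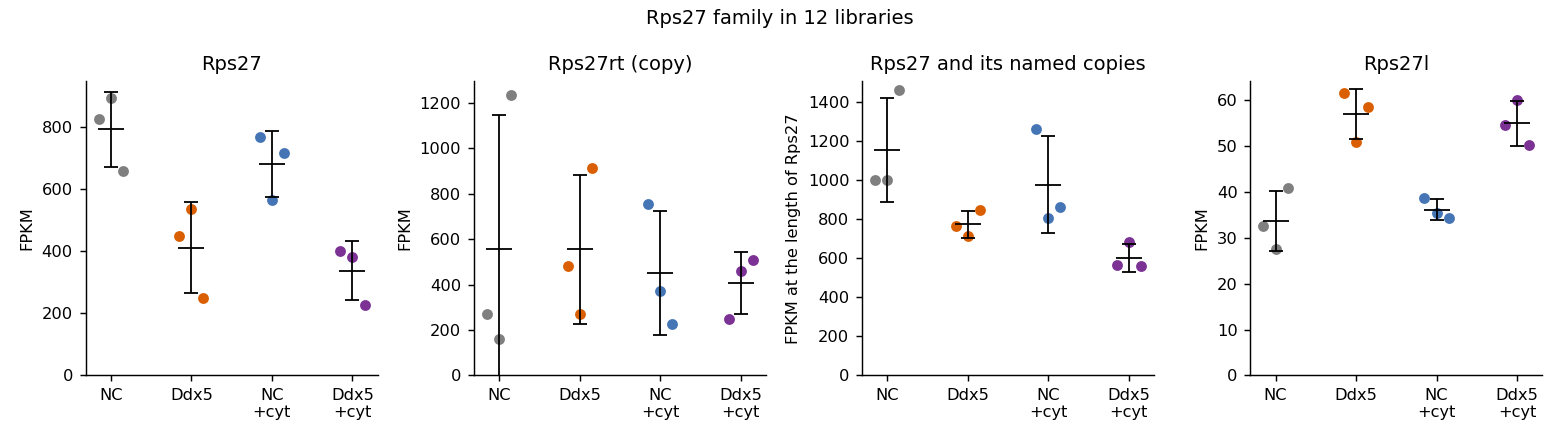
FPKM (vertical axes, from 0) of Rps27, its copy Rps27rt, the sum of Rps27 and its named copies at the length of Rps27, and Rps27l in the 12 libraries by group (NC, shRNA-NC; Ddx5, shRNA-Ddx5; +cyt, IL-1β and TNF-α), with points for libraries and bars for the mean ± SD of 3. Rps27 and its summed family are lower and Rps27l is higher in knockdown cells in both media, while Rps27rt ranges from 160 to 1232 FPKM within shRNA-NC.

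Rpl6, a large subunit protein, was 557, 541 and 592 FPKM in shRNA-NC cells and 939, 682.5 and 788 FPKM in knockdown cells. The groups did not overlap, and the log2 fold change was 0.50 (SE 0.11, limma adjusted p = 0.00412). Rpl6l was 56.3, 56.3 and 51.3 FPKM against 106, 86.9 and 109 FPKM, with a log2 fold change of 0.86 (SE 0.16, limma adjusted p = 0.00114). Rpl6l lies at chr10:110961697-110962641 (plus strand) in the table, where it counts as protein-coding, whereas the GENCODE annotation calls it a processed pseudogene. It differed from the Rpl6 coding sequence at 11 of 873 aligned bases, an identity of 98.74%, so that the split of fragments between Rpl6 and Rpl6l is uncertain. Summed at the length of Rpl6, an alternative chosen after seeing the data, the pair was 591, 575 and 623 FPKM against 1002, 735 and 854 FPKM (log2 fold change 0.52, limma adjusted p = 0.00315), with Rpl6l holding 4.94% to 8.61% of it over the 12 libraries.

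Rps20, a small subunit protein, fell from 231, 190 and 154.5 FPKM to 141, 100.3 and 108 FPKM, a log2 fold change of -0.71 (SE 0.18, limma adjusted p = 0.00772). The highest knockdown library was still below the lowest control library. Rpl10a was 1083, 1008 and 1068 FPKM against 945, 692 and 770 FPKM, and its log2 fold change was -0.40 (SE 0.12, limma adjusted p = 0.0143), again without overlap. Rpl3, which lines the peptidyl transferase centre, was 544, 532 and 758 FPKM against 470, 438 and 499.5 FPKM (log2 fold change -0.36, SE 0.14, limma adjusted p = 0.0495). This call was lost with the replicate block, without the filter, with only the groups compared and in 9 of 12 leave-outs, among them that without shRNA-NC 3, where the log2 fold change was -0.20.

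4 more members passed. Rpl23 (-0.46, limma adjusted p = 0.0253), Rps18 (-0.44, adjusted p = 0.0435) and Rpl13a (-0.41, adjusted p = 0.0295) fell, and Rpl24 (0.29, adjusted p = 0.0393) rose, all as log2 fold changes. Rpl13a, which is also known as a translational silencer in inflammation, did not overlap between groups, at 1234, 1003 and 936 FPKM against 905, 672 and 815 FPKM, whereas Rpl23 and Rps18 did overlap. Rpl6, Rpl6l, Rps27l and Rps20 were the 4 of 11 members whose calls held in all 9 alternatives and all 12 leave-outs. None of these 4 has a named copy, so family sums did not test them, and of the pair Rpl6 and Rpl6l only the sum above was run.

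With IL-1β and TNF-α present, the same question was asked of knockdown against control cells in cytokines. 5 members rose and 4 fell, 9 of 79 or 11.4%, against 45.6% of all genes (23.5% up and 22.1% down). Rpl7a rose most and Rps27 fell most. The median was 0.02 over the members and 0.01 over all genes. Large subunit genes had a median of 0.12 with 4 up and 3 down, and small subunit genes a median of -0.07 with 1 up and 1 down. Scaled to 1 sum of FPKM 4 rose and 15 fell, after quantile normalization 4 rose and 16 fell, and scaled to the sum of fragments 4 rose and 8 fell.

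Rps27 was 768, 563 and 715 FPKM in shRNA-NC cells with cytokines and 402, 382.5 and 228 FPKM in shRNA-Ddx5 cells with cytokines. The groups did not overlap, and the level was 682 ± 106 against 337 ± 95.2 FPKM (SD, n = 3; limma adjusted p = 0.0111). The summed family was 1260, 805 and 862 FPKM against 564, 682 and 558 FPKM, also without overlap (log2 fold change -0.67, limma adjusted p = 0.0139). Rps27l was 38.7, 35.5 and 34.4 FPKM against 54.7, 59.9 and 50.2 FPKM (log2 fold change 0.59, SE 0.13, limma adjusted p = 0.00353), higher in every knockdown library.

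Rpl6 was 609, 585 and 565 FPKM against 798, 854 and 785 FPKM (log2 fold change 0.47, limma adjusted p = 0.00602), and Rpl10a was 1186, 1150 and 1166 FPKM against 825, 924 and 858 FPKM (-0.43, adjusted p = 0.0109). Neither gene overlapped between groups, and both moved as they did in medium. The sum of Rpl6 and Rpl6l had a log2 fold change of 0.45 (limma adjusted p = 0.00751). Rpl3 was 625, 535 and 521 FPKM against 410, 454 and 402 FPKM (-0.41, limma adjusted p = 0.0318). The libraries of Rpl3 did not overlap in either medium. Rpl12, part of the stalk base, fell (-0.37, limma adjusted p = 0.0249), and Rpl31 (0.38, adjusted p = 0.0159) and Rpl27 (0.36, adjusted p = 0.0441) rose.

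Rpl7a, a large subunit protein at the subunit surface, differed from these in that it passed the test with cytokines and not in medium. It was 208, 161 and 217 FPKM in shRNA-NC cells, 241, 174 and 212 FPKM in shRNA-Ddx5 cells, 229, 195 and 222 FPKM in shRNA-NC cells with cytokines and 301.5, 480 and 511.5 FPKM in shRNA-Ddx5 cells with cytokines. Only the 3 knockdown libraries with cytokines stood above the other 9. The log2 fold change of the knockdown was 0.10 (SE 0.20, limma adjusted p = 0.722) in medium and 0.96 (SE 0.20, limma adjusted p = 0.00224) with cytokines. The difference between these, tested as the interaction, was 0.87 (SE 0.28) and did not pass (limma adjusted p = 0.0849), so an effect in 1 medium alone was not shown.

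**Figure D2:**
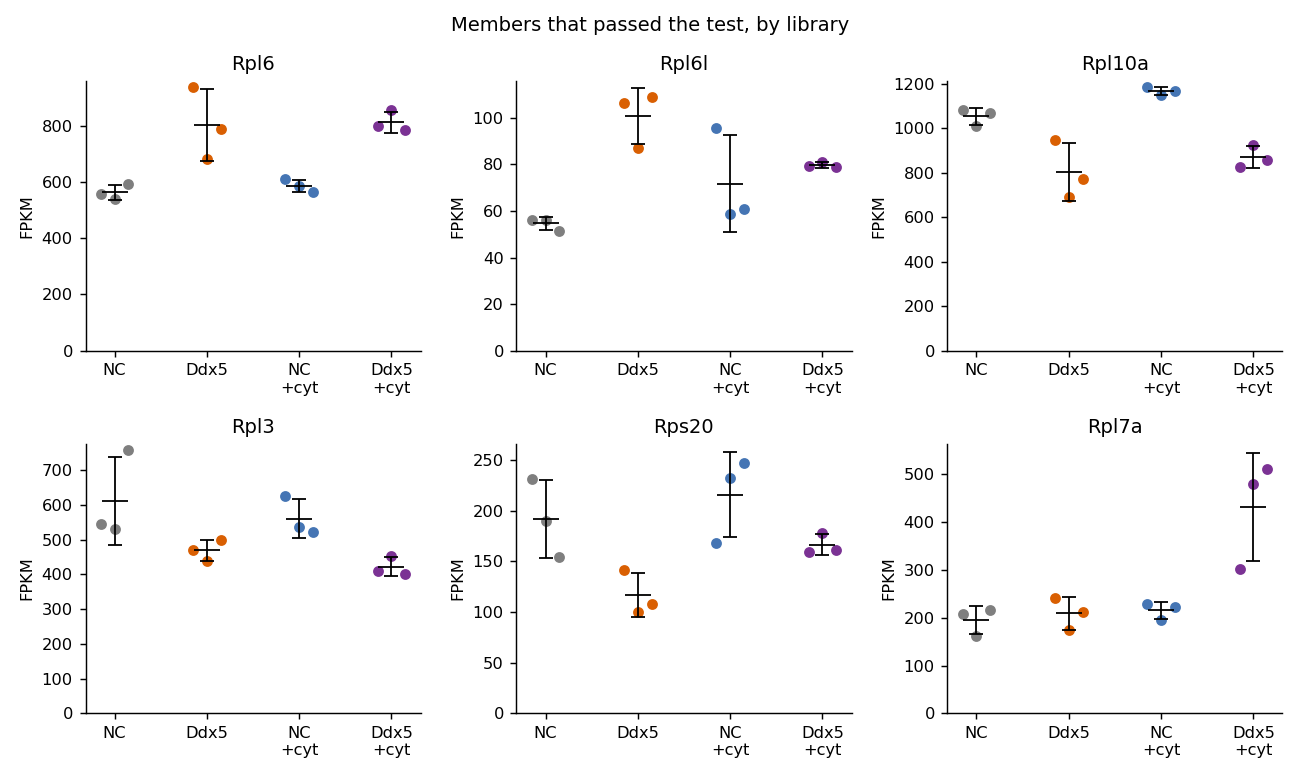
FPKM (vertical axes, from 0) of Rpl6, Rpl6l, Rpl10a, Rpl3, Rps20 and Rpl7a in the 12 libraries by group (labels as for the Rps27 family), with points for libraries and bars for the mean ± SD of 3. Rpl6 is higher and Rpl10a and Rpl3 are lower in knockdown cells in both media, and Rpl7a reaches 301.5 to 511.5 FPKM in knockdown cells with cytokines.

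The knockdown comparisons in the 2 media use separate libraries. 5 members, Rps27, Rpl10a, Rpl3, Rpl6 and Rps27l, passed in both and had the same sign, which is 45.5% of the 11 called in medium and 55.6% of the 9 called with cytokines. Among all genes, 3753 passed in both with the same sign, out of 12368 tested (30.3%), 5817 called in medium and 5645 called with cytokines. The 5 members were out of 79 tested, and against each of these totals the share of the members was the smaller. The call of Rpl3 in medium is the one described above as lost in most leave-outs. 6 passed in medium alone, 4 with cytokines alone and 64 in neither. Rps20, past the threshold in medium, had a log2 fold change of -0.36 with cytokines (limma adjusted p = 0.134), and Rpl6l had 0.19 (adjusted p = 0.366). With cytokines the calls that held in all 9 alternatives and 12 leave-outs were those of Rpl10a, Rpl6, Rps27, Rpl7a and Rps27l, 5 of 9, and those of Rpl10a, Rps27 and Rpl7a, which have named copies, also held with the family sums.

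**Figure D3:**
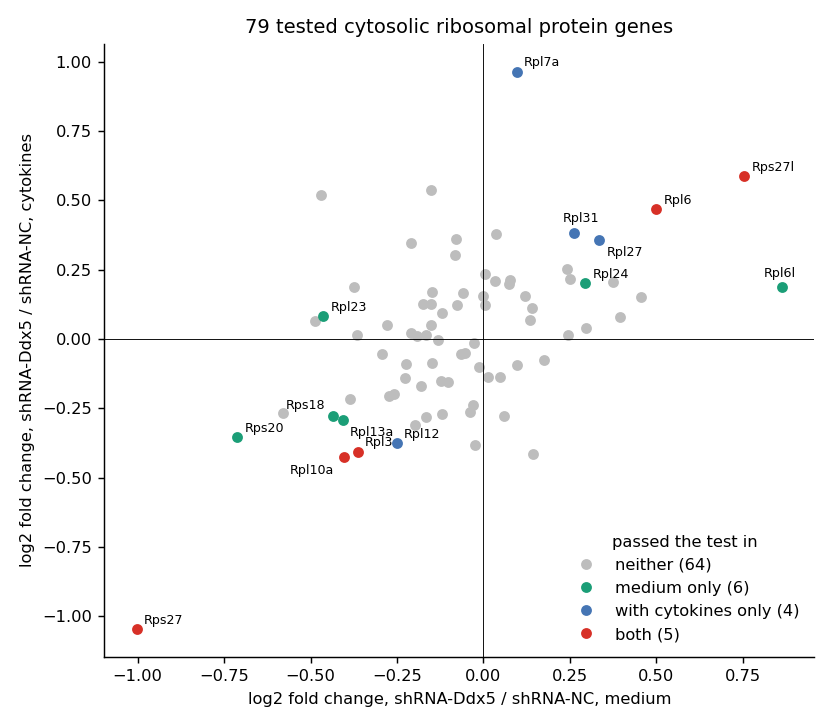
Log2 fold change of shRNA-Ddx5 over shRNA-NC cells in medium (horizontal axis) against that with cytokines (vertical axis), on the log2(FPKM + 1) scale, with 1 point for each of the 79 tested members. Colours give the comparisons in which a member passed the test (64 in neither, 6 in medium only, 4 with cytokines only, 5 in both), and Rps27 lies at -1.003 and -1.05.

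The response to 6 h of IL-1β and TNF-α was compared first in shRNA-NC cells, whose unstimulated libraries also serve in the knockdown comparison in medium. 5 members rose and none of the 79 fell by limma, 6.33%, against 33.8% of all genes (18.6% up and 15.2% down), and with fragment weights (voom) 6 rose and 1 fell. 9 members had an unadjusted p under 0.05. The median log2 fold change was 0.12 over the members and 0.02 over all genes, and 60 of 79 lay above 0. The median turned to -0.04 when libraries were scaled to 1 sum of FPKM (3 fell and 1 rose, with the median of all genes at -0.13) and to -0.05 after quantile normalization (4 fell and 1 rose).

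Rpl21 was 37.8, 37.4 and 28.6 FPKM without and 47.0, 69.3 and 73.4 FPKM with cytokines, without overlap (log2 fold change 0.84, limma adjusted p = 0.0334). Rpl39l, a relative of Rpl39 that is most abundant in male germ cells, was 72.9, 50.7 and 78.1 FPKM against 83.1, 93.7 and 105 FPKM (0.50, limma adjusted p = 0.0428), also higher in each library. Rplp2 of the stalk was 796, 563 and 589.5 FPKM against 838, 842 and 944 FPKM (0.44, limma adjusted p = 0.0458). Rpl34 (0.58, limma adjusted p = 0.0209) and Rps2 (0.35, adjusted p = 0.0427) also rose. Summed with its named copy, Rpl34 had a log2 fold change of -0.17, and the calls of Rpl21 and Rps2 were lost in the same sums (limma adjusted p = 0.0647 and 0.0627). None of these 5 calls held in all alternatives and leave-outs. No member passed without shRNA-NC 2, shRNA-NC with cytokines 2 or shRNA-NC with cytokines 3. Without shRNA-NC 3, 3 members passed, but only 1 of them, Rpl39l, was among these 5. Without shRNA-Ddx5 3 or any 1 of the shRNA-Ddx5 libraries with cytokines, 2 passed. Of all genes 26% to 31.3% passed in these leave-outs.

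In shRNA-Ddx5 cells, whose libraries are those of the knockdown comparisons, 10 members rose with cytokines and none of the 79 fell by limma, 12.7%, against 27% of all genes (13.5% up and 13.5% down), and with fragment weights 19 rose and none fell. 27 members had an unadjusted p under 0.05. The median was 0.17 over the members and 0.00 over all genes, and 55 of 79 were above 0. Scaled to 1 sum of FPKM, 9 rose and 4 fell, and after quantile normalization 8 rose and 7 fell. The number past the threshold was 29 of 79 without shRNA-Ddx5 1, where 30.5% of all genes passed, a smaller share than that of the members. It was 20 without shRNA-NC 3, where 31% of all genes passed. It was 5 without shRNA-Ddx5 with cytokines 3, and 4 without shRNA-Ddx5 2, shRNA-Ddx5 3, shRNA-Ddx5 with cytokines 1 or shRNA-Ddx5 with cytokines 2. In these 18.5% to 21.5% of all genes passed.

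Rpl7a rose from 209 ± 33.7 to 431 ± 113 FPKM (SD, n = 3; log2 fold change 1.02, SE 0.20, limma adjusted p = 0.00278). Rpl39l was 83.2, 56.2 and 66.8 FPKM without and 120, 125 and 121 FPKM with cytokines, without overlap (0.84, SE 0.17, limma adjusted p = 0.00366). Rpl29, which was low throughout, was 1.93, 1.85 and 1.95 FPKM against 8.59, 4.63 and 3.86 FPKM (1.14, limma adjusted p = 0.00813). These 3 calls of 10 held in all alternatives and leave-outs, and those of Rpl7a and Rpl29, which have named copies, also with the family sums. That of Rpl34 (0.91, limma adjusted p = 0.00203) was lost with its copy added, where the log2 fold change was 0.05.

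Rpl38 was 517, 246 and 248 FPKM against 616, 806 and 645 FPKM (log2 fold change 1.11, SE 0.32, limma adjusted p = 0.0253). Rps29 was 386, 213 and 229 FPKM against 487, 631 and 507 FPKM (1.01, SE 0.31, limma adjusted p = 0.0327), and Rpl41, the most abundant member, 3166, 1797 and 1942 FPKM against 3439, 4108 and 3471 FPKM (0.72, SE 0.23, limma adjusted p = 0.0376). In all 3, shRNA-Ddx5 1 was the highest of the unstimulated libraries. Rpl36 (0.63, limma adjusted p = 0.0284), Rps23 (0.51, adjusted p = 0.0463) and Rpl13 (0.50, adjusted p = 0.0489) were the other members that rose. Rps28 had the highest log2 fold change of the tested members, 1.21, but its SE was 0.52 and it did not pass (limma adjusted p = 0.109).

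The interaction asked whether the knockdown changed the cytokine response. No member passed by limma or with fragment weights, and 4 had an unadjusted p under 0.05, against 8.21% of all genes past the adjusted threshold. The medians were 0.06 and -0.01. The larger number of members that rose in shRNA-Ddx5 cells was therefore not shown to be a difference between shRNA-Ddx5 and shRNA-NC cells. Rpl38 had the highest value at 0.99 and Rpl6l the lowest at -0.68 (log2 scale).

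The members fixed by name for their roles mostly stayed under the threshold. Of the P stalk, which recruits elongation factors, Rplp0 was 2045 ± 612 against 1952 ± 158 FPKM in medium and 1911 ± 410 against 1600 ± 121 FPKM with cytokines (log2 fold changes of the knockdown -0.03 and -0.24, limma adjusted p = 0.917 and 0.361). Rplp1 had -0.08 and 0.12 and Rplp2 -0.05 and -0.05, none of them past the test. Rpl5 and Rpl11, which with 5S rRNA can bind Mdm2, had log2 fold changes of -0.20 and -0.08 in medium and of -0.31 and 0.30 with cytokines (limma adjusted p between 0.093 and 0.73). Rps6, the S6 kinase substrate, had -0.01 and -0.10, Rps3, which also takes part in DNA repair, -0.12 and -0.15, and Rps19, mutated in Diamond-Blackfan anaemia, -0.03 and -0.01. Rpl22 had -0.13 and 0.00, Rpsa, the laminin receptor precursor, 0.25 and 0.02, and none of these passed.

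Rps27a, which is made as a fusion with ubiquitin, had a log2 fold change of -0.21 with the knockdown in medium and 0.35 with cytokines (limma adjusted p = 0.335 and 0.117). With cytokines in shRNA-NC cells it was 705, 583 and 732 FPKM against 426, 532 and 541 FPKM, without overlap, but the difference of -0.43 on the log2 scale was not past the test (limma adjusted p = 0.07). Rpl10 and Rpl39, the parents of Rpl10l and Rpl39l, had log2 fold changes of 0.01 and -0.18 in medium and -0.14 and -0.17 with cytokines, and none passed. Rpl39l, whose call rose with cytokines, was at 0.04 and 0.38 for the knockdown (limma adjusted p = 0.879 and 0.0908). Rpl17 had the lowest log2 fold change in medium after Rps27 and Rps20, -0.58 (SE 0.45, limma adjusted p = 0.313), with 70.5, 105 and 272 FPKM against 64.2, 78.8 and 118 FPKM. It was -0.996 without shRNA-NC 1 and -0.030 without shRNA-NC 3. Summed with its copies it was -0.42 (limma adjusted p = 0.0441).

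**Figure D4:**
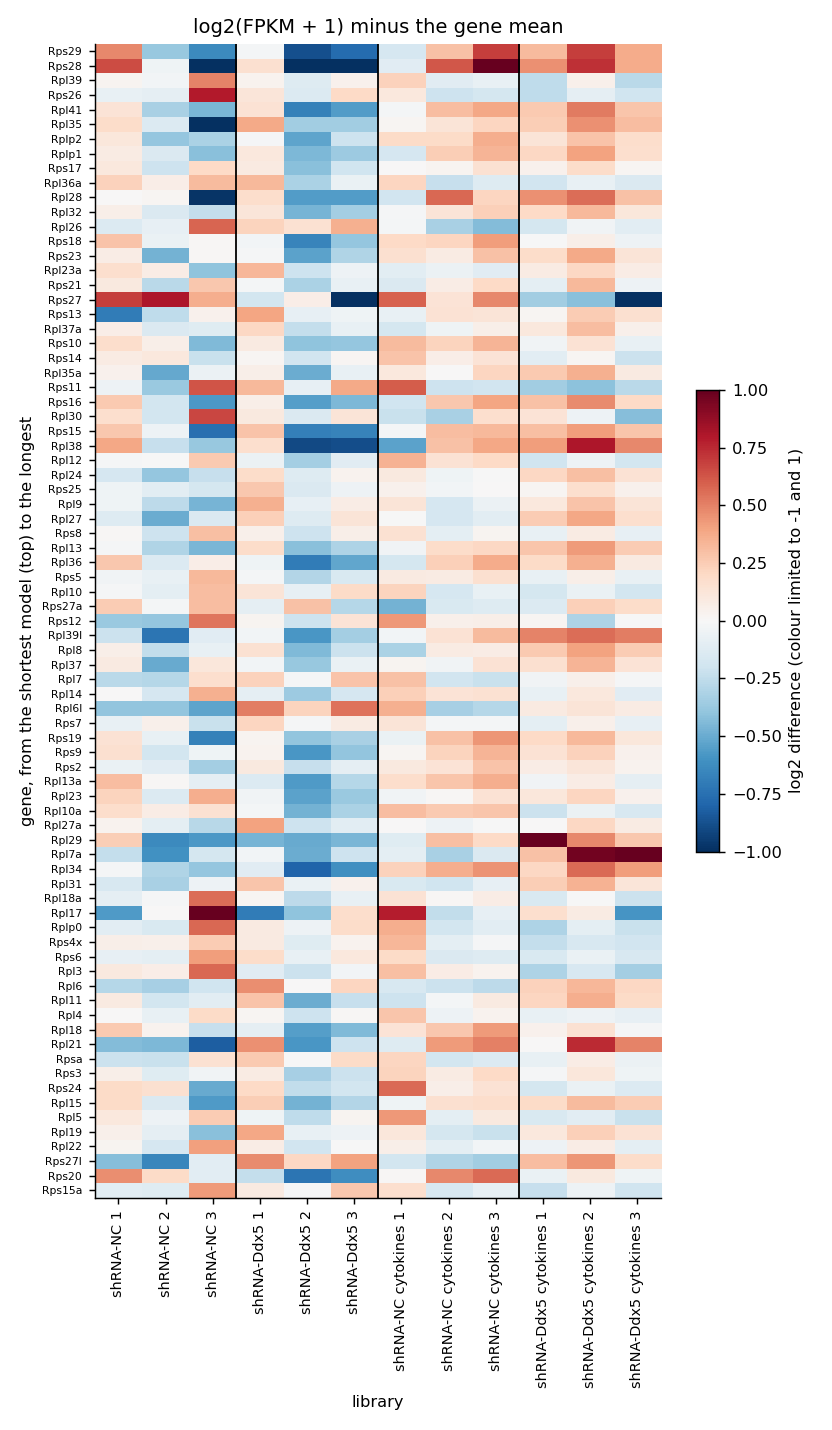
Log2(FPKM + 1) of the 79 tested members (vertical axis, from the shortest gene model at the top to the longest) in the 12 libraries (horizontal axis), as the difference from the mean of each gene, with the colours limited to -1 and 1. Columns differ within groups as well as between them: shRNA-Ddx5 2 is mostly low, and shRNA-NC 3 is the highest of its group for 35 members and the lowest for 30.

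The spread between replicates was wide for these genes and was larger in short ones. The SD within groups, pooled over the 4 groups on the log2 scale, had a median of 0.21 over the 79 members against 0.148 over all genes tested, and 66 members were above the latter. Members were also wider than the 578 other genes with a mean of at least 100 FPKM, whose median was 0.154. The rank correlation of SD with gene length was -0.28 over the members, -0.45 over all genes and -0.49 over the 578 abundant genes, a description across genes that share the same libraries. Without shRNA-NC 3 the median over the members was 0.181 and the correlation -0.29.

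Within length classes the members were close to other abundant genes where models were short. Below 500 bases the median SD was 0.283 for 11 members and 0.299 for 30 other abundant genes, and from 500 to under 1000 bases it was 0.212 for 39 members and 0.222 for 123 others. From 1000 to under 2000 bases it was 0.191 for 23 members against 0.144 for 217 others, and at 2000 bases or more 0.185 for 6 members against 0.121 for 208 others. The widest members were Rps28 at 0.745, Rpl17 at 0.644, Rpl38 at 0.458 and Rps29 at 0.443, and the narrowest were Rps7 at 0.106 and Rpl24 at 0.112. Rps28 ranged from 142 to 677 FPKM within shRNA-NC alone. shRNA-Ddx5 2 was the lowest library of its group for 75 of 79 members, and shRNA-Ddx5 with cytokines 2 the highest of its group for 72. The same count over all genes was not made, so this is not shown to be particular to the members. Deviations from the group mean also ranked with gene length over all genes in these libraries. The rank correlations were 0.366 in shRNA-Ddx5 2 and -0.305 in shRNA-Ddx5 with cytokines 2, against 0.326 and -0.264 over the members.

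**Figure D5:**
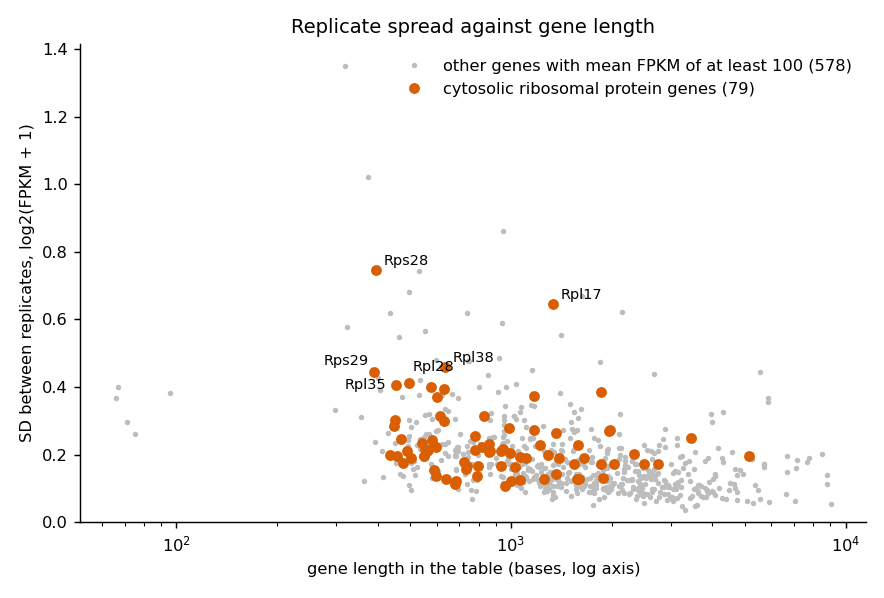
SD between replicates of log2(FPKM + 1), pooled over the 4 groups (vertical axis), against gene model length in bases (horizontal axis, log scale) for the 79 members and the 578 other genes with a mean of at least 100 FPKM. The members have a median of 0.21 and the others 0.154, and the 6 widest members are named.

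Genes that act with the cytosolic ribosome were counted on lists. Of 7 other cytosolic ribosome proteins outside the name rule, 1 rose and 1 fell with the knockdown in medium (median -0.05), 28.6% against 47% of all genes. With cytokines present 1 rose with the knockdown (median 0.03), 14.3% against 45.6%. In the cytokine comparisons none passed in either cell by limma, against 33.8% and 27% of all genes. There 2 had an unadjusted p under 0.05 in each cell and fragment weights called 0 and 1. Rpl36al, an autosomal relative of Rpl36a, rose in both media (log2 fold changes 0.70 and 0.59, limma adjusted p = 0.000473 and 0.00139), and Rpl22l1, the relative of Rpl22, fell in medium (-0.61, adjusted p = 0.0207). Rps3a1 had -0.40 with cytokines (limma adjusted p = 0.0779).

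The mitochondrial ribosome gave other counts than the cytosolic one. Of 78 mitochondrial ribosomal protein genes 48 rose and 1 fell with the knockdown in medium (62.8%), and 35 rose and none fell with cytokines (44.9%, 45 at an unadjusted p under 0.05), with median log2 fold changes of 0.37 and 0.33. The highest were Mrpl33 in medium (1.07, limma adjusted p = 3.24e-05) and Mrpl41 with cytokines (1.29, adjusted p = 9.29e-05), and Mrpl2 fell in medium (-0.70, adjusted p = 0.00618). With cytokines 16 rose and 2 fell in shRNA-NC cells (median 0.16), 23.1% against 33.8% of all genes. In shRNA-Ddx5 cells 6 rose and 3 fell (median 0.12), 11.5% against 27%. Among the mitochondrial genes Mrpl21 was highest in shRNA-NC cells (0.66) and Mrpl45 lowest (-0.31, limma adjusted p = 0.0409). Mrpl38 was highest in shRNA-Ddx5 cells (0.95, limma adjusted p = 0.000135) and Mrps6 lowest (-0.36, adjusted p = 0.0625). The cytosolic members thus had 13.9% and 11.4% past the threshold in the knockdown comparisons, below the 47% and 45.6% of all genes, and the mitochondrial genes 62.8% and 44.9%. The wider replicate spread of the members (median SD 0.21 against 0.148 for all genes) makes calls harder to reach. Its part in the lower shares was not tested.

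Of 57 ribosome biogenesis factors that passed the filter out of 60, 26 rose and 6 fell with the knockdown in medium and 12 rose and 14 fell with cytokines (medians 0.14 and -0.07), 56.1% and 45.6% against 47% and 45.6% of all genes. With cytokines 37 rose in shRNA-NC cells (median 0.48) and 27 in shRNA-Ddx5 cells (0.26), 64.9% and 47.4% against 33.8% and 27% of all genes, and none of the 57 fell by limma in either. Rrp9, a U3 snoRNP protein, was the highest in medium (1.03, limma adjusted p = 0.00922) and with cytokines in shRNA-NC cells (1.28, adjusted p = 0.00404). Bop1 of the PeBoW complex rose with the knockdown in cytokines (0.89, limma adjusted p = 6.78e-05), Taf1d of the RNA polymerase I factor SL1 fell in both media (-0.77 and -1.19, adjusted p = 0.0139 and 0.00115), and Rrs1 rose with cytokines in shRNA-Ddx5 cells (0.99, adjusted p = 0.000129).

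Translation factors and other mRNAs with a TOP motif numbered 27. With the knockdown 7 rose and 6 fell in medium and 4 rose and 4 fell with cytokines (medians 0.00 and -0.02), 48.1% and 29.6% against the same 47% and 45.6% of all genes. With cytokines 3 rose and 1 fell in shRNA-NC cells and 5 rose in shRNA-Ddx5 cells (medians 0.12 and 0.06), 14.8% and 18.5% against 33.8% and 27%. Eif4a1, the eIF4F helicase, rose with the knockdown (log2 fold changes 0.79 and 0.95, limma adjusted p = 5.69e-05 and 1.6e-05), and Eif4a2, its paralogue (-0.68 and -0.96, adjusted p = 0.00211 and 0.00023), and Eif3a (-1.10 and -0.69, adjusted p = 0.000344 and 0.00635) fell in both media. Eif3g had 0.67 and 0.78 and was the highest of the list with cytokines in each cell, and Eif4b was the lowest in shRNA-NC cells (-0.46). Of 19 regulators of TOP mRNAs, 4 rose and 7 fell with the knockdown in medium (median -0.16), 57.9% against 47% of all genes. With cytokines present 2 rose and 5 fell with the knockdown (median -0.06), 36.8% against 45.6%. In the cytokine comparisons 2 rose and 1 fell in each cell (medians -0.05 and 0.03), 15.8% against 33.8% and 27% of all genes. Rictor of mTORC2 (-1.27 and -0.72, limma adjusted p = 0.000271 and 0.00862) and Larp4 (-0.85 and -0.80, adjusted p = 0.00344 and 0.00485) fell in both media, and Rps6kb2, an S6 kinase, rose in both (0.61 and 0.72, adjusted p = 0.00386 and 0.00154). Eif4ebp1, an mTORC1 substrate that restrains eIF4E, was highest with cytokines in both cells (0.79 and 0.68), and Tsc1 (-0.51) and Eif4ebp2 (-0.29) were lowest.

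Of 7 non-coding hosts of snoRNAs, whose RNAs also carry TOP motifs, 5 fell and none rose with the knockdown in each medium by limma (71.4%, medians -0.77 and -1.10), and 5 in each had an unadjusted p under 0.05. Of all genes 47% and 45.6% were called, with 21.7% and 22.1% lower in knockdown cells. The list was chosen with earlier results of these data known. Snhg6 was lowest, at log2 fold changes of -1.45 and -1.65 (limma adjusted p = 0.00138 and 0.0006), and Snhg1, Snhg5, Snhg8 and Snhg12 were the others. Snhg3 (0.31 and 0.34, limma adjusted p = 0.131 and 0.104) and Gas5 (-0.14 and -0.024, adjusted p = 0.446 and 0.909) did not pass in either medium. With cytokines 4 rose in shRNA-NC cells and 2 in shRNA-Ddx5 cells (medians 0.48 and 0.26), 57.1% and 28.6% against 33.8% and 27% of all genes. Snhg12 was the highest host in both (1.00 and 0.72, limma adjusted p = 0.00263 and 0.019).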

How the data were processed

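Poly-T selected mRNA from 1 µg of total RNA per sample was made into libraries with size selection at 370 to 420 bp and sequenced from both ends. The submitters' processing notes name HISAT2 2.0.5, featureCounts 1.5.0-p3, DESeq2 1.20.0, GATK 3.7 and mm10, without roles; strandedness is not given in the sources used here. The authors deposited 1 table of FPKM per gene, fragments scaled by gene length and depth. All values above 0 (100%) were whole multiples of a step per library and gene (relative tolerance 1e-06), and the denominators equalled median-of-ratios size factors, so fragments were recovered. The table's coordinates match GRCm39 rather than the build named.

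From these values, log2(FPKM + 1) was tested with limma 3.58.1 in R 4.3.3, with 4 group means, variance trended on abundance and Benjamini-Hochberg adjustment over the 12368 genes at an FPKM of 1 or more in 3 or more libraries. Samples were grouped by title into 4 groups of 3. Contrasts compared knockdown with control cells per medium, cytokines with none per cell, and these responses with each other (interaction). Shares of summed FPKM were described without a test. Sequences were handled with Python 3.11.15 and Biopython 1.88, tables with pandas 2.3.3 and plots with matplotlib 3.10.9, and scripts were tested on simulated data. Precision is limited by 3 libraries a group, and Rpl28, Rpl29 and Rpl34 also by few fragments.

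The members and lists were chosen with earlier results of these data known. Named by rule were Ddx5, relatives and parents (Rpl3l, Rpl10l, Rpl39l, Rps27l), the stalk, members with roles besides the ribosome, the 3 highest and 3 lowest mean levels, and the 3 highest and 3 lowest changes in each contrast, with the highest and lowest gene of each other list; the other members that passed the test, the snoRNA host RNAs that fell and Rps4l were named after their values were seen. Alternatives were a pseudocount of 0.1, no filter, other scalings, quantile normalization, voom weights on recovered fragments, a replicate block, only the groups compared, each library left out and, chosen after seeing the data, sums with named copies and of Rpl6 with Rpl6l. Same-numbered samples correlated in their deviations over all genes at 0.448, 0.043 and 0.313 for the knockdown in medium but at or below 0.123 in the other contrasts, so the numbers were not taken to pair samples.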

Additional observations from a re-analysis of the deposited data

Results flagged for a closer look

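Among the members, Rpl6l lay higher with cytokines in shRNA-NC cells and lower in shRNA-Ddx5 cells, in both without overlap of the groups, but neither response passed (log2 fold changes 0.35 and -0.33, limma adjusted p = 0.112 and 0.158). In shRNA-NC cells it was between 51.3 and 56.3 FPKM without and between 58.8 and 95.6 FPKM with cytokines, and in shRNA-Ddx5 cells between 86.9 and 109 FPKM without and between 78.7 and 81.2 FPKM with cytokines. The interaction was -0.68 on the log2 scale and did not pass the test (limma adjusted p = 0.0938). Rpl6 did not pass for cytokines in either cell, and the part of the fragment split between the 2 genes was not tested.

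On the other lists 6 genes differed between shRNA-NC and shRNA-Ddx5 cells in their cytokine response by the interaction term in limma. They were 2 of 78 mitochondrial genes (2.56%), 3 of 57 biogenesis factors (5.26%) and 1 of 19 regulators of TOP mRNAs (5.26%). Of all genes 8.21% passed, so each of these shares was below that of all genes. Tsc1, a restraint on mTORC1, had an interaction of 0.68 (adjusted p = 0.00857) and went from 13.6 to 9.32 FPKM in shRNA-NC cells and from 10.1 to 11.4 FPKM in shRNA-Ddx5 cells. Polr1b, a subunit of RNA polymerase I, had -0.48 (limma adjusted p = 0.015), with 15.4 to 24.4 FPKM in shRNA-NC cells and 18.4 to 20.4 FPKM in shRNA-Ddx5 cells. Rrn3, an initiation factor of the same polymerase, had -0.58 (limma adjusted p = 0.0312), and Rrp12, a biogenesis factor, -0.53 (adjusted p = 0.0409). Of the mitochondrial ribosome, Mrpl38 had 0.70 (limma adjusted p = 0.0309) and Mrps6 -0.79 (adjusted p = 0.026).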

How the results depend on the processing

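With a pseudocount of 0.1 no count changed by over 1.5 times. The number of members past the threshold for the knockdown in medium was 5 without the filter on low values, 24 when libraries were scaled to 1 sum of FPKM, 21 after quantile normalization and 5 when only the libraries of the groups compared were fitted; leaving out 1 library gave 4 to 14. With cytokines the knockdown gave 19 under the scaling to 1 sum and 20 after quantile normalization. For cytokines in shRNA-NC cells it was 0 without the filter, 2 when scaled to the sum of fragments, 3 with size factors made without the members, 2 with only the groups compared, 2 with family sums and 0 to 7 with 1 library left out. For cytokines in shRNA-Ddx5 cells it was 4 without the filter, 19 with fragment weights, 19 with only the groups compared and 4 to 29 with 1 library left out. Of all genes 13.1%, 27.6%, 31.2% and 18.5% to 31% passed in these. The interaction gave 1 member after quantile normalization and 0 to 1 with a library left out. The median of the members was -0.23 (knockdown in medium, 1 sum of FPKM), -0.11 (knockdown with cytokines, quantile), -0.037 and -0.047 (cytokines in shRNA-NC cells, 1 sum and quantile) and 0.021 (cytokines in shRNA-Ddx5 cells, quantile). With 1 library left out it ran from -0.18 to 0.029 and -0.030 to 0.087 for the knockdown without and with cytokines, 0.091 to 0.17 and 0.084 to 0.25 for cytokines in shRNA-NC and shRNA-Ddx5 cells and -0.013 to 0.15 for the interaction. The causes were not tested.

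With the replicate number as a block, 2 members passed with cytokines in shRNA-NC cells and 5 with cytokines in shRNA-Ddx5 cells, and counts of the knockdown comparisons stayed within 1.5 times. The numbers were not taken to pair the libraries, which these values cannot settle. The correlations of same-numbered libraries ran from -0.368 to 0.448 over all genes and from -0.735 to 0.781 over the members. For the knockdown in medium those over the members were 0.781, 0.0076 and 0.773.

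On the other lists, the other cytosolic ribosome proteins called with the knockdown in medium were 1 without the filter, 4 under 1 sum of FPKM and 1 to 3 with a library left out. With cytokines they were 3 under the sum of fragments, 3 under 1 sum of FPKM, 3 after quantile normalization, 2 with only the groups compared and 1 to 2 with a library left out. For cytokines in shRNA-NC cells they were 0 to 1 with a library left out, and in shRNA-Ddx5 cells 1 with fragment weights, 2 with only the groups compared and 0 to 2 with a library left out. Mitochondrial genes called with cytokines in shRNA-NC cells were 10 without the filter, 11 after quantile normalization, 9 with only the groups compared and 10 to 22 with a library left out, and in shRNA-Ddx5 cells 4, 14 (1 sum of FPKM), 15 (only the groups compared) and 3 to 24. Biogenesis factors called in shRNA-Ddx5 cells with cytokines were 15 under 1 sum of FPKM, 14 after quantile normalization and 13 to 29 with a library left out. Translation factors were 13 and 15 under these scalings for the knockdown with cytokines and 7 under both for cytokines in shRNA-NC cells, and for cytokines in shRNA-Ddx5 cells 3 without the filter and 1 to 7 with a library left out. Regulators of TOP mRNAs were 7 with only the groups compared and 7 to 12 with a library left out for the knockdown in medium, and 3 to 6 and 1 to 4 with a library left out for cytokines in shRNA-NC and shRNA-Ddx5 cells. The snoRNA hosts called with cytokines in shRNA-Ddx5 cells were 0 to 2 with a library left out.

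The calls of Rpl34 rest on the split with its copy: with family sums its log2 fold change was -0.17 with cytokines in shRNA-NC cells. Members that had not passed and lay near 0 changed sign. Rpl39l in medium was -0.061 under the sum of fragments, -0.12 under 1 sum of FPKM, -0.21 after quantile normalization and -0.15 to 0.17 with a library left out. Rpl10 in medium was -0.087, -0.14 and, with size factors made without the members, -0.0095, and -0.068 to 0.13 with a library left out. Rpsa with cytokines was -0.042, -0.095 and, after quantile normalization, -0.15, and -0.060 to 0.14 with a library left out, and Rpl22 with cytokines was 0.000758 with size factors made without the members and -0.054 to 0.036 with a library left out. Leaving out 1 library moved, for the knockdown in medium, Rplp0 from -0.16 to 0.20, Rplp1 from -0.25 to 0.047, Rplp2 from -0.17 to 0.10, Rpl11 from -0.30 to 0.094, Rpl22 from -0.26 to 0.030, Rps6 from -0.10 to 0.16 and Rps19 from -0.27 to 0.15, and with cytokines Rplp1 from -0.030 to 0.22, Rplp2 from -0.093 to 0.0050, Rps6 from -0.16 to 0.0095 and Rps19 from -0.16 to 0.10. The rank correlation of spread with length over the members was -0.23 under 1 sum of FPKM and -0.32 to -0.20 with a library left out. With 3 libraries a group the SE of a log2 fold change was above 0.3 for Rps28, Rpl17, Rpl38 and Rps29, which limits what could be called for them.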

Other observations

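Rps4l, a relative of Rps4x that the table classes as a transcribed pseudogene and that the name rule therefore left out, was chosen after its values were seen. It stood at 25.01, 22.8 and 26.95 FPKM in shRNA-NC cells and at 8.79, 8.01 and 7.78 FPKM in shRNA-Ddx5 cells, and with cytokines at 24.0, 24.1 and 27.1 FPKM against 8.42, 8.62 and 9.79 FPKM. The knockdown libraries were below every control library in both media, with log2 fold changes of -1.49 and -1.39 (SE 0.09 for both, limma adjusted p = 6.79e-07 and 1.03e-06). Cytokines moved it by 0.01 and 0.11 (limma adjusted p = 0.95 and 0.388). Its coordinates in the table are chr6:148256154-148257094 (plus strand).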
